A study of Brassica napus with 24 samples.

Results

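The transcripts described here were those that leaves and late anthers of fertile rapeseed (Brassica napus) had in common, at a level that younger buds and anthers did not reach. They were represented by 100 of the 43603 probes of a Brassica oligonucleotide array. The choice used the log2 values of the authors' table in mock-treated plants only, as the mean of 3 arrays per tissue (organ). Of all probes, 32715 had means in leaves and large-bud anthers that lay no more than 2 apart. For each of these a score was taken, which was the lower of those 2 means minus the higher of the means in small buds and middle-bud anthers, and the 100 probes with the highest score were kept. The contrast between tissues of mock-treated plants was therefore built in by the choice, and it is given as a description without a test.

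Plants of one cultivar were grown in a field and sprayed on the leaves at bolting. The MES-treated group received monosulfuron ester sodium (MES) at 0.1 μg/mL, about 15 mL per plant, in a solution that held Tween 80 (5 ppm) and DMF (50 ppm). The mock-treated group received the same volume of that solution without MES. From each group, young leaves (Ls), whole small buds (SBs), anthers of middle buds (An-MBs) and anthers of large buds (An-LBs) were collected. The small buds were before or in the stage of pollen mother cells, middle buds ran from meiosis to the early microspore, and large buds ran from the vacuolated microspore to mature pollen. All 8 groups (MES-treated and mock-treated Ls, SBs, An-MBs and An-LBs) had 3 biological replicates, each a mixture of material from many plants, and each replicate was hybridised to 1 array with a single dye.

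MES is an inhibitor of acetolactate synthase, the first enzyme of the synthesis of branched-chain amino acids, and at low dose it serves as a chemical hybridising agent that makes rapeseed male sterile. Leaves are a source of sugar for the plant, whereas anthers import sugar and amino acids through their filament and through the tapetum, the cell layer that surrounds the microspores. Late anthers in addition hold ripening pollen. In Arabidopsis, transporters of the SWEET family release sugars from cells along such routes, and the members of the bZIP and bHLH families named below regulate the transcription of other genes.

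No gene could be given to 82 of the 100 probes. The other 18 were paired with 11 Arabidopsis genes: 13 probes by the annotation tables of the study, and 5 because they were made from the same source sequence as a probe in those tables. The tables list genes that the study selected on these same samples, so that a named member is not a random one. The 100 probes were made from 97 source sequences, since 3 sequences carried 2 members each: 1 for AT2G17710 and 2 for SWEET11. Levels are log2 signals after quantile normalisation, and they were compared between samples of one probe only, not between probes.

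On the arrays 73.0% to 81.9% of the probes were well above background, and the median signal before normalisation lay between 377.5 and 1208. This brightness differed between groups. It was 431.2 to 701.9 in mock-treated An-LBs and 832.9 to 1066 in MES-treated An-LBs. MES-treated An-MBs replicate 2 was at 383.9, against 1098 and 1162 for its replicates. Replicate arrays of a group correlated with r of 0.9447 to 0.9895 over all probes, the lowest values being those of MES-treated An-MBs replicate 2 with its replicates and of MES-treated Ls replicates 2 and 3. The mock-treated arrays lay on slides 1 to 3 and the MES-treated arrays on slides 4 to 7, so that treatment and slide cannot be told apart. Within a treatment, the 4 tissues of a replicate number lay on the same slide, except MES-treated An-LBs replicate 2, which lay alone on slide 7 and was read on another scan day and by another scanner model. The mock-treated arrays of replicate 1 were scanned on day 1, and all other arrays but that one on day 2. Each tissue held the same position on every slide, again except for that array. Cell type markers were taken from the same tables. The 11 pollen probes had a summed signal of 10.68 to 12.52 on the log2 scale in MES-treated An-LBs and 21.14 to 21.28 in mock-treated An-LBs, and for 4 of the 11 no MES-treated An-LBs array had a signal well above background. The 23 probes called leaf probes here were all for photosynthesis genes. The study saw chloroplasts in the outer cell layers of anthers as well, so these probes do not mark leaf cells alone. Their summed signal was 20.96 to 21.35 in MES-treated Ls and 21.45 to 21.57 in mock-treated Ls. It was 18.14 to 18.49 in MES-treated An-LBs and 16.74 to 16.85 in mock-treated An-LBs. The single tapetum probe, for LAP6, averaged 9.45 in MES-treated SBs (6.01 to 12.01 over the arrays) and 15.83 in mock-treated SBs (15.19 to 16.24). In An-MBs it averaged 8.17 with MES (5.95 to 9.44) and 6.74 in mock-treated plants (3.91 to 11.51). In An-LBs it averaged 3.98 with MES, dark on all these arrays, and 8.24 in mock-treated plants. In An-MBs the pollen probes were at 8.07 to 8.48 with MES and at 17.23 to 19.14 in mock-treated plants, with 9 of the 11 dark on all MES-treated arrays, and the leaf probes at 18.45 to 18.68 with MES and at 17.32 to 17.79 in mock-treated plants. The summed pollen and leaf markers thus moved with the treatment in both An-LBs and An-MBs, beside every result given for these tissues, and their part in those results was not tested. The study had selected these probes for a change with MES in the same samples, so their movement is not independent evidence. Not every leaf probe followed the sum. In whole tissues, fewer cells of a type and less RNA per cell cannot be told apart.

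In mock-treated plants the score of the members ran from 6.14 to 2.67, with a median of 3.42. The member of rank 100, A_46_P361335, had a score of 2.669 and the first probe outside, A_46_P309480, one of 2.662, so that the edge of the group was not a gap. Of the 100 members, 44 were higher in Ls than in An-LBs of mock-treated plants and 56 were lower, with differences between the tissue means from -1.95 to 1.95. The median level of the members in mock-treated plants was 11.34 in Ls and 11.37 in An-LBs, and it was 6.97 in SBs and 6.38 in An-MBs. On all 6 mock-treated arrays of Ls and An-LBs, 96 members were well above background, and 8 members were not well above background on any mock-treated array of SBs or An-MBs. The SD of replicates had a median of 0.320 in mock-treated Ls, with an upper quartile of 0.447 and a highest value of 1.24. In mock-treated An-LBs replicates were wider, with a median SD of 0.501, an upper quartile of 0.833 and a highest value of 1.67.

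**Figure D1:**
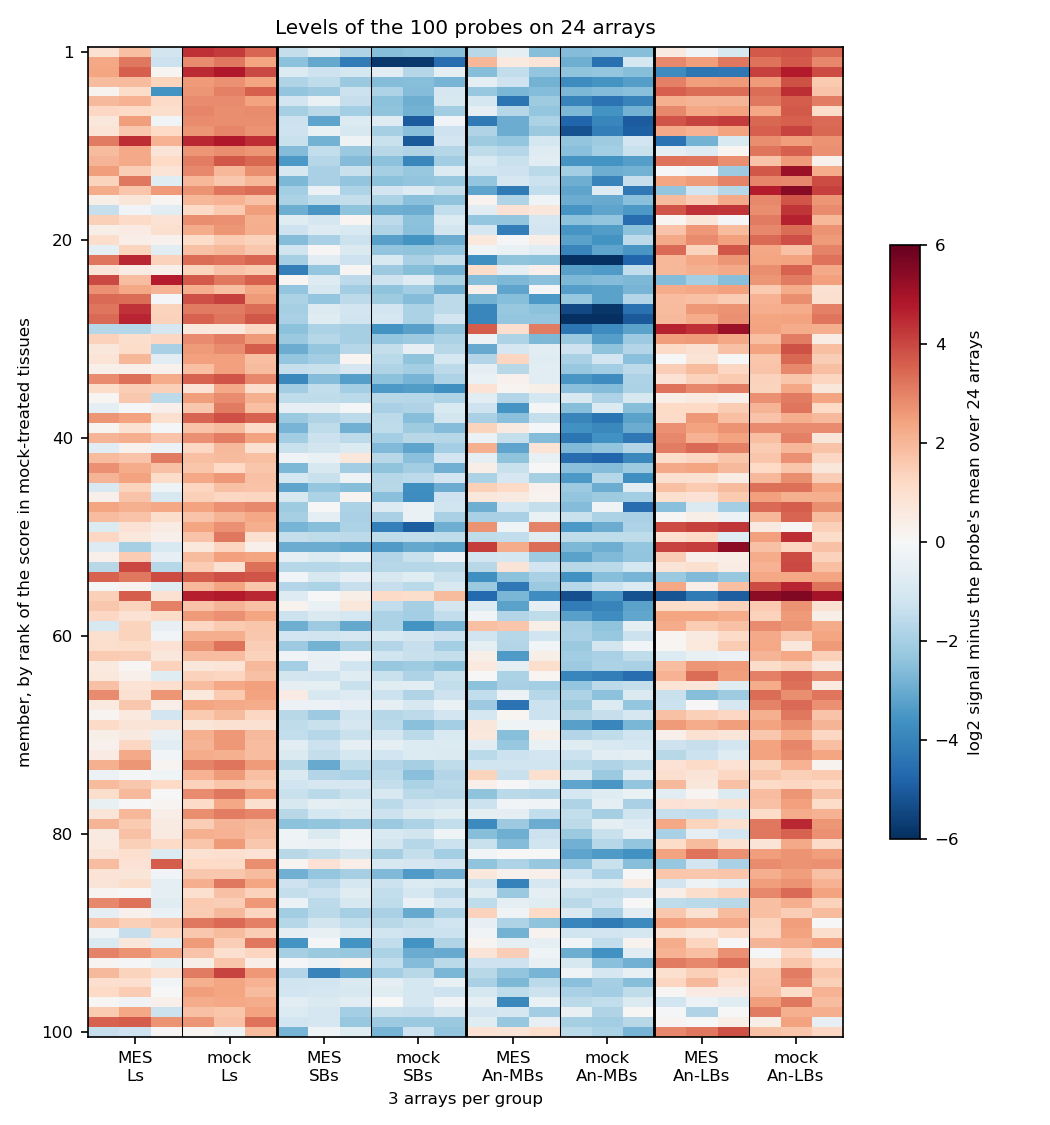
Levels of the 100 members (rows, by rank of the score) on the 24 arrays (columns, 3 per group, MES-treated left of mock-treated within each tissue). Colours show the log2 signal minus the mean of the probe over all arrays, in log2 units. Mock-treated Ls and An-LBs are high in nearly every row because the choice used them, whereas MES-treated An-LBs hold both high and low rows.

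In MES-treated plants the median level of the members was 9.69 in Ls, against 11.34 in mock-treated Ls. It was 7.47 in MES-treated SBs and 6.97 in mock-treated SBs, and 7.71 in MES-treated An-MBs and 6.38 in mock-treated An-MBs. In MES-treated An-LBs it was 10.73, against 11.37 in mock-treated An-LBs. The members also spread more widely in MES-treated An-LBs, with quartiles of 7.45 and 12.44, against 9.82 and 13.08 in mock-treated An-LBs. The measure that had chosen the members, computed on the means of the MES-treated tissues instead, had a median of 0.865 and ran from -4.68 to 3.74. It was above 0 for 70 members, above 1 for 46 and above 2 for 21. Among all probes it had a median of -0.606, and 471 probes were above 1.

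**Figure D2:**
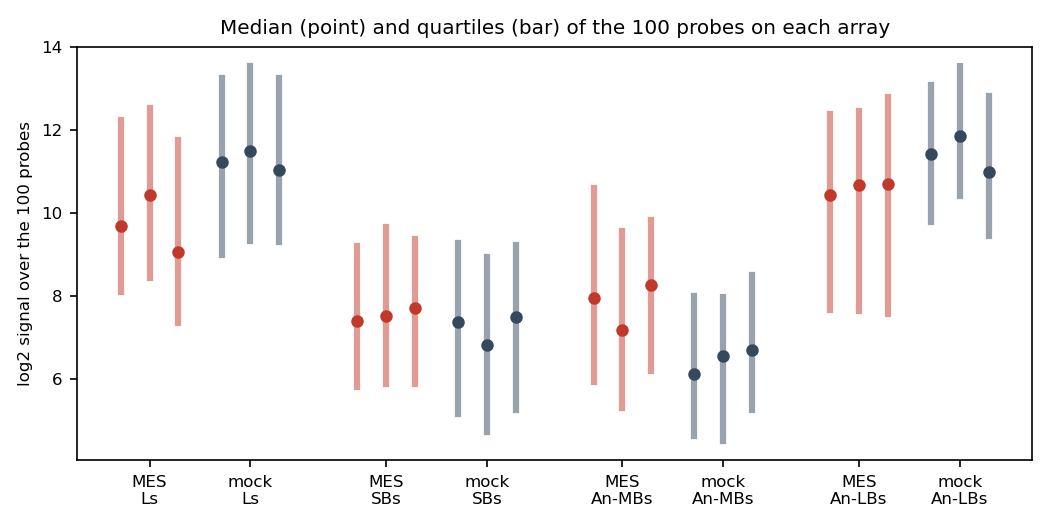
Median (point) and quartiles (bar) of the log2 signal of the 100 members on each of the 24 arrays, MES-treated in red and mock-treated in dark blue. The medians of the 3 MES-treated Ls arrays lie below those of the mock-treated Ls arrays, and those of the MES-treated An-MBs arrays lie above those of the mock-treated An-MBs arrays.

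Whether the pattern was also present in MES-treated plants was tested on the MES-treated arrays, which had no part in the choice. Leaves kept it widely: 69 of the 93 members tested were higher in Ls than in SBs and 0 were lower, whereas 12.3% of all probes tested were higher. Of 96 members tested, 51 were higher in Ls than in An-MBs and 3 (A_46_P200824, A_46_P264583 and A_46_P361335) were lower (10.9% and 8.89% of all probes). In An-LBs, 71 of 93 members tested were higher than in SBs and 5 (A_46_P356230, A_46_P182704, A_46_P338505, A_46_P297935 and A_46_P230574) were lower (15.5% and 18.7% of all probes), and 49 of 91 were higher than in An-MBs and 0 were lower (4.08% of all probes were higher). Each test was limma's moderated test on the 6 arrays of a pair, for probes with a signal well above background in no fewer than 3 of these. A change was called at an adjusted p under 0.05 and at least 2-fold. A member dark in 1 tissue of the pair passed this filter through the other tissue alone, so only 1 direction could be called. For Ls against SBs, such calls were those of A_46_P258659, A_46_P082266, A_46_P179904, A_46_P102429 and A_46_P102584, all higher. For An-LBs against SBs they were A_46_P365570, A_46_P307985, A_46_P264583, A_46_P179904 and A_46_P102429 (higher) and A_46_P356230, A_46_P338505 and A_46_P297935 (lower). Against An-MBs they were A_46_P258659, A_46_P046396, A_46_P082266, A_46_P338505 and A_46_P364915 for Ls and A_46_P364915 for An-LBs, all higher. Between An-LBs and Ls of MES-treated plants, 32 of 98 members tested were higher in An-LBs and 20 were lower (14.0% and 15.2% of all probes). Of the lower ones, A_46_P356230, A_46_P046396, A_46_P338505 and A_46_P297935 were dark in An-LBs and could only be called lower there. In either direction, 23.9% of all probes were called for Ls against SBs, 19.8% for Ls against An-MBs, 34.1% for An-LBs against SBs, 7.40% for An-LBs against An-MBs and 29.3% for An-LBs against Ls, and 11.7% and 3.32% were lower in the comparisons without a lower member. Without MES-treated Ls replicate 1 the counts of either direction were 43 for Ls against SBs, 28 for Ls against An-MBs and 33 for An-LBs against Ls, and without MES-treated SBs replicate 1 the first was 45. For An-LBs against An-MBs the count was 17, 10 and 21 without MES-treated An-LBs replicate 1, 2 and 3, 25 without MES-treated An-MBs replicate 3, so this comparison depended most on single arrays. With the replicate number, and so nearly the slide, as a block, the counts were 54 for Ls against SBs, 52 for Ls against An-MBs, 78 for An-LBs against SBs, 22 for An-LBs against An-MBs and 46 for An-LBs against Ls.

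Of the 86 members tested in all 4 of these comparisons, 26 were higher in both Ls and An-LBs than in both SBs and An-MBs of MES-treated plants, against 132 of 32816 probes overall (0.402%). They included all 5 SWEET11 probes. They also included the unnamed probes A_46_P180219, A_46_P182134, A_46_P219644 and A_46_P025306, of ranks 4, 6, 9 and 12. A_46_P364915 was among the 26 as well, although against An-MBs, where it was dark, only a higher level could be called. Of the 26, 7 were lower in MES-treated than in mock-treated An-LBs, 1 (A_46_P347520) was higher and 18 were not called. The probes named for small counts here and above were picked out after their values had been seen. The count was 9, 5 and 13 without MES-treated An-LBs replicate 1, 2 and 3, and 14 without MES-treated Ls replicate 1 or MES-treated An-MBs replicate 3. With another array left out it ran from 18 to 29.

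The probe A_46_P180219, of rank 4, is given as an example. Its level was 13.71, 13.70 and 13.11 in MES-treated Ls, against 14.33, 14.53 and 14.14 in mock-treated Ls, and 14.83, 14.29 and 14.32 in MES-treated An-LBs, against 14.33, 15.62 and 13.35 in mock-treated An-LBs. In SBs it was 10.00, 10.27 and 9.54 with MES, against 9.21, 9.23 and 9.02 in mock-treated SBs, and in An-MBs 11.19, 10.54 and 8.96 with MES, against 7.998, 8.21 and 8.50 in mock-treated An-MBs. The groups overlapped in An-LBs alone, and no tissue passed the test for MES against mock. Within MES-treated plants An-LBs exceeded An-MBs by 4.25 on the log2 scale (limma, adjusted p = 0.0138) and Ls exceeded An-MBs by 3.27 (adjusted p = 0.0108).

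The effect of MES on the members was then compared in each tissue. Because the members had been chosen for high values on the mock-treated arrays of Ls and An-LBs and for low values on those of SBs and An-MBs, a lower level against mock in the first pair of tissues and a higher level in the second is not independent of the choice. In Ls, 20 of 100 members were lower and 0 were higher, against 2.30% and 2.52% of all probes. In SBs, 7 of 81 members tested were higher and 0 were lower, against 1.81% and 2.32% of all probes. In An-MBs, 29 of 87 were higher and 1 (A_46_P312790) was lower, against 4.24% and 2.86% of all probes. In An-LBs, 40 of 100 were lower and 10 were higher, against 11.9% and 17.3% of all probes. In either direction, 29.2% of all probes were called in An-LBs, 7.10% in An-MBs, 4.13% in SBs and 4.82% in Ls. The median log2 fold change over the 100 members was -1.39 in Ls and -0.84 in An-LBs, where over all probes tested it was -0.05 and 0.24. It was 0.26 in SBs and 1.09 in An-MBs, where over all probes tested it was 0.05 and -0.04. The MES-treated and mock-treated arrays did not overlap for 63 members in Ls (37.5% of all probes tested), 61 in An-LBs (56.3%), 45 in An-MBs (32.4%) and 23 in SBs (28.4%).

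These counts differed in how far they rested on single arrays. In An-LBs the count was 42 to 49 with 1 array left out, except 30 without mock-treated An-LBs replicate 1. In Ls it was 0 without MES-treated Ls replicate 1 or any one of mock-treated Ls replicates 1, 2 and 3, 48 without MES-treated Ls replicate 2 and 23 without MES-treated Ls replicate 3. In SBs it was 1, 4 and 0 without MES-treated SBs replicate 1, 2 and 3 and 0, 1 and 2 without mock-treated SBs replicate 1, 2 and 3. In An-MBs it was 13, 40 and 12 without MES-treated An-MBs replicate 1, 2 and 3, and 5, 13 and 17 without mock-treated An-MBs replicate 1, 2 and 3. Without mock-treated replicate 1, the arrays of Ls, SBs and An-MBs were all of 1 scan day, and the counts were then 0, 0 and 5. In An-LBs this also needed MES-treated An-LBs replicate 2 to be left out, and 22 of 93 members tested were then called, 5 higher and 17 lower, a check added after the data had been seen. The calls in An-LBs of A_46_P182134, A_46_P219644, A_46_P341190 and A_46_P362310 were lost in that fit, with 2 arrays a group (adjusted p = 0.0608, 0.054, 0.0624 and 0.138).

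To separate the choice from the test, the 100 probes were also chosen on 1 mock-treated replicate alone and tested against the other 2, a check added after the data had been seen. Chosen on replicate 1, 2 or 3, the lists shared 70, 66 and 62 probes with the members. In Ls 0 probes of each list were called, where at most 0.0466% of all probes were, and the median log2 fold change was -1.11, -1.40 and -0.98. In An-LBs, 24 of 85, 20 of 90 and 35 of 90 probes tested were lower (8.71%, 10.2% and 10% of all probes), and 4, 12 and 11 were higher (14.4%, 18.9% and 16.2% of all probes). In An-MBs, 4 of 71, 9 of 76 and 18 of 76 were higher (0.535%, 1.59% and 1.31% of all probes). In SBs, 0 of 70, 1 of 76 and 2 of 66 were higher (0.0717%, 0.746% and 0.956% of all probes), and 0, 1 and 1 were lower (0.0538%, 0.603% and 1.37%). With 2 mock-treated arrays in place of 3, fewer of all probes were called in Ls, SBs and An-MBs.

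Most members shared the sign of their log2 fold change within a tissue. It was negative for 89 of 100 in Ls (17187 of 32491 among all probes tested) and 75 of 100 in An-LBs (13795 of 35095). It was positive for 72 of 87 tested in An-MBs (16428 of 34773) and 55 of 81 in SBs (18645 of 33935). The calls, which rest on a threshold, differed between members. Across the 4 tissues, 22 members were changed in no tissue, 53 in 1, 21 in 2 and 4 in 3 (A_46_P219644, A_46_P200824, A_46_P362310 and A_46_P052011). Over the 79 members tested in every tissue, 16 were changed in none, 43 in 1, 17 in 2 and 3 in 3, where of the 31088 such probes overall 67.9% were changed in none, 25.7% in 1, 5.24% in 2, 0.955% in 3 and 0.199% in all 4. These counts are not independent of the choice either. In Ls and An-LBs, 7 members were lower in both (0.265% of the 31666 probes tested in both) and 39 were called in neither (70.5%). By contrast 11 were lower in Ls alone (1.65%), 33 were lower in An-LBs alone (8.45%) and 8 were higher in An-LBs alone (16.2%). Only 2 (A_46_P200824 and A_46_P052011) were lower in Ls and higher in An-LBs (0.347%). The 7 became 0 without MES-treated Ls replicate 1 or any one of the mock-treated Ls arrays, 22 without MES-treated Ls replicate 2 and 4 without mock-treated An-LBs replicate 1. With any other array of these tissues left out it was 5 to 8.

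**Figure D3:**
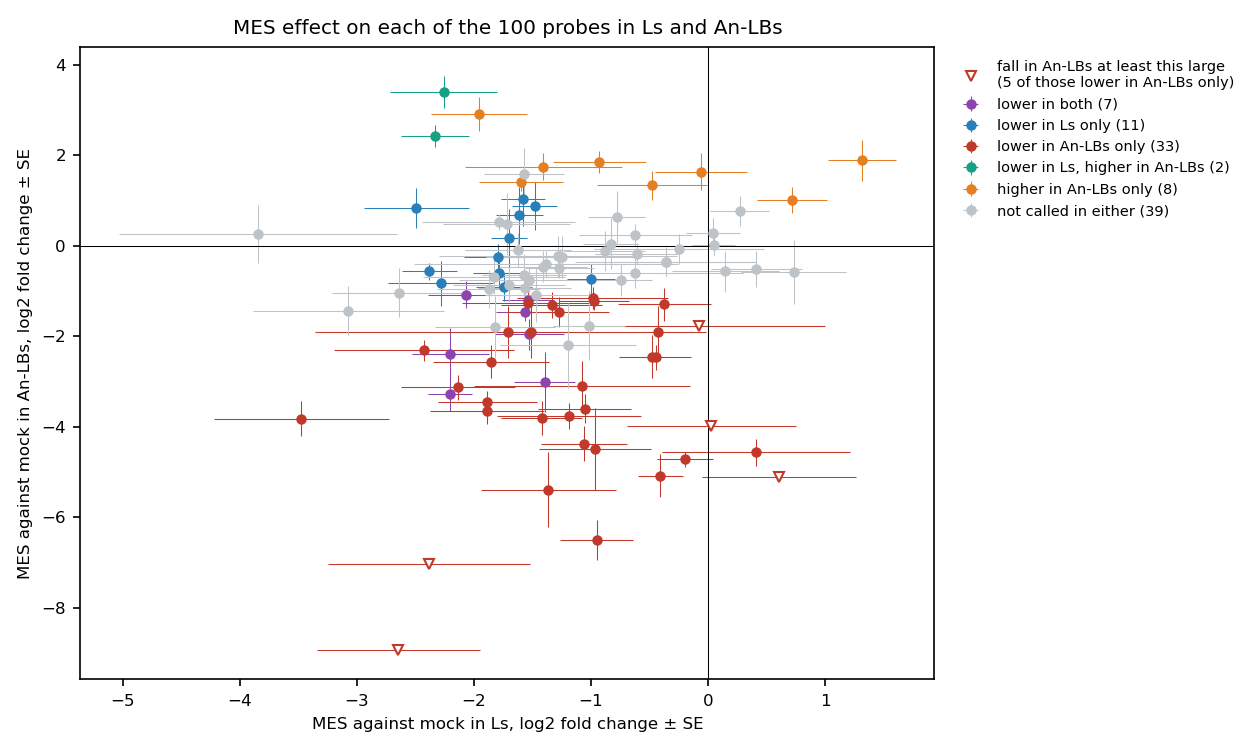
Log2 fold change of MES-treated over mock-treated in Ls (horizontal) and An-LBs (vertical) for each of the 100 members, with SE bars, coloured by the call in each tissue. Open triangles are the 5 members not well above background on any MES-treated An-LBs array, drawn at their bound without a vertical SE bar. Most points lie left of zero, and the vertical axis runs from a bound of -8.94 (A_46_P338505) to 3.41 (A_46_P052011).

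Among the named members, those for transporters were split between these patterns. SWEET11 (AT3G48740), a sugar transporter that in Arabidopsis takes part in the export of sucrose from leaves to the phloem, had 5 probes. Its probe A_46_P231464 had a level of 9.75, 9.71 and 9.56 in MES-treated Ls, against 11.46, 11.32 and 11.36 in mock-treated Ls. In An-LBs this probe was at 11.41, 10.84 and 10.96 with MES and at 10.87, 12.21 and 9.61 in mock-treated plants. The 3 MES-treated leaves were all below the 3 mock-treated ones, whereas in An-LBs the MES-treated values lay within the wide range of the mock-treated values.

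In Ls, 4 of the 5 SWEET11 probes fell, by 1.70 (A_46_P231464), 1.61 (A_46_P267703), 1.48 (A_46_P024356) and 1.58 (A_46_P371240) on the log2 scale (limma, adjusted p = 0.0237, 0.0260, 0.0269 and 0.0254). The fifth probe, A_46_P155559, had a log2 fold change of -0.78 ± 0.24 (SE) in Ls and was not called (adjusted p = 0.0992). In An-LBs the log2 fold changes of the 5 probes were 0.17, 0.68, 0.88, 1.03 and 0.64, and none was called (adjusted p from 0.208 to 0.847). In An-MBs 3 of the 5 rose: A_46_P155559 by 2.64, A_46_P024356 by 2.21 and A_46_P371240 by 2.44 on the log2 scale (adjusted p = 0.0487, 0.0434 and 0.0413). The probe A_46_P371240 stood at 10.50, 9.14 and 8.58 in MES-treated An-MBs, against 7.05, 6.72 and 7.15 in mock-treated An-MBs, without overlap. The leaf calls of all 4 probes were lost without MES-treated Ls replicate 1 or any one mock-treated Ls array, with log2 fold changes from -1.74 to -1.65 for A_46_P231464 over the 6 such fits. The 3 calls in An-MBs were lost without any one mock-treated An-MBs array, and also without MES-treated An-MBs replicate 1 or 2 (A_46_P155559), 1 or 3 (A_46_P024356) or 3 (A_46_P371240).

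**Figure D4:**
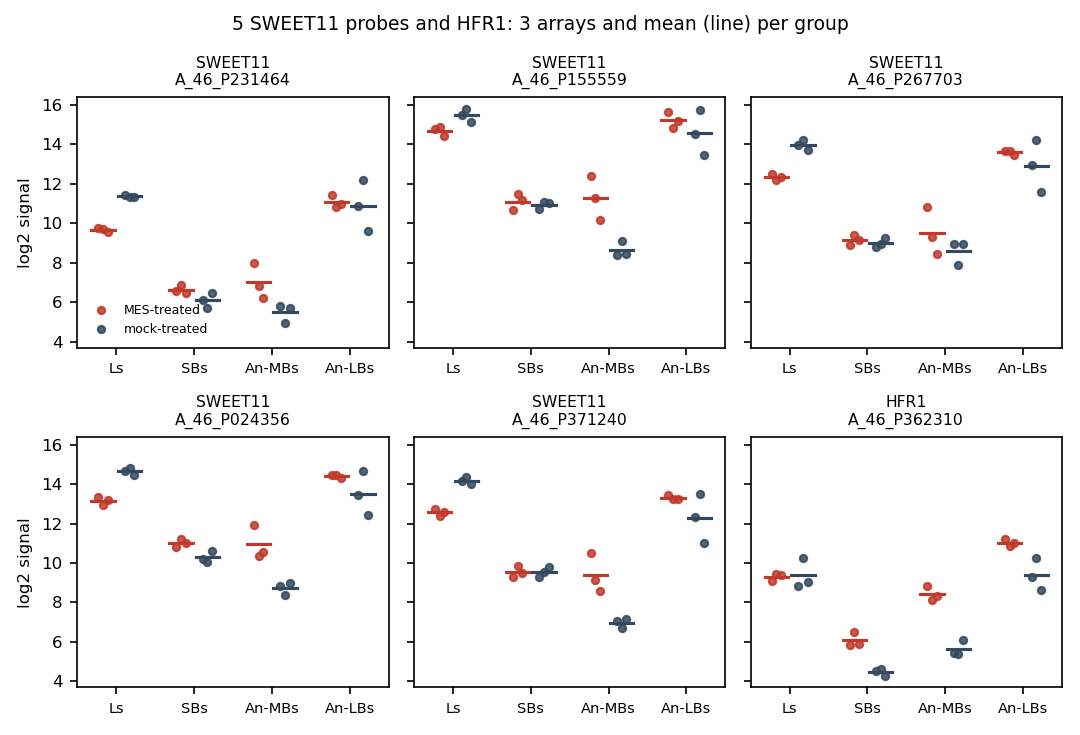
Log2 signal of the 5 SWEET11 probes and of the HFR1 probe on the 3 arrays of each group (points) with the group mean (line), MES-treated in red left of mock-treated in dark blue, by tissue. For SWEET11 the MES-treated Ls points lie below the mock-treated ones, the MES-treated An-MBs means lie above, and the mock-treated An-LBs points spread around the MES-treated ones.

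The member for AT5G02180, a gene of an amino acid transporter family, had the largest lower bound on a fall. Its probe A_46_P338505 was at 2.86, 3.81 and 3.12 in MES-treated An-LBs, not well above background on any of these arrays, against 13.41, 13.60 and 13.05 in mock-treated An-LBs. The level was at least 490.2-fold lower in MES-treated An-LBs (limma, adjusted p = 5.98e-06), where the bound set the mock-treated mean against the dimmest signals well above background on the MES-treated arrays. The probe passed the filter there through the mock-treated arrays alone, which had also chosen it, so only a fall could be called. In Ls it was at 9.50, 11.69 and 8.95 with MES, against 12.70, 12.80 and 12.57 in mock-treated Ls, without overlap but not called (log2 fold change -2.65, adjusted p = 0.0743). Within MES-treated plants the level was at least 11.52-fold lower in An-LBs than in SBs (adjusted p = 0.000339), the reverse of the order in mock-treated plants. In that comparison the probe passed the filter through the SBs arrays alone.

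Among the regulators, bZIP34 (AT2G42380) is a transcription factor that in Arabidopsis is needed for a normal pollen wall. Its probe A_46_P049911 was at 7.12, 8.32 and 7.78 in MES-treated An-LBs, against 14.20, 14.94 and 13.58 in mock-treated An-LBs, and its second probe, A_46_P336975, at 8.16, 9.82 and 8.65, against 14.06, 14.33 and 13.45. Both fell in An-LBs, by 6.50 ± 0.44 and 5.07 ± 0.47 on the log2 scale (SE, limma, adjusted p = 0.000154 and 0.000544). In Ls the probe A_46_P049911 was at 11.68, 11.12 and 12.05 with MES and at 12.16, 12.69 and 12.85 in mock-treated plants, with a log2 fold change of -0.95 that was not called (adjusted p = 0.113). Within MES-treated plants the differences of An-LBs minus Ls were -3.88 and -4.07 on the log2 scale (adjusted p = 0.000868 and 0.00107), and those of An-LBs minus SBs were -0.32 and -0.46 and were not called (adjusted p = 0.636 and 0.597).

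AT1G06700, a gene of the protein kinase superfamily, showed a like difference between the tissues. Its probe A_46_P356230, of rank 3, was at 3.39, 2.86 and 2.91 in MES-treated An-LBs, none well above background, against 11.31, 11.93 and 11.11 in mock-treated An-LBs. The level was at least 131.2-fold lower (limma, adjusted p = 8.63e-06). Here too the probe passed the filter through the mock-treated arrays alone, which had also chosen it. In Ls it was at 9.57, 10.78 and 7.28 with MES, against 11.64, 11.99 and 11.16 in mock-treated Ls, and the log2 fold change of -2.39 ± 0.86 (SE) was not called (adjusted p = 0.134).

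AT3G07940, for a protein with a domain that activates the ARF type of small GTPase, and AT1G23030, for a protein of the armadillo repeat superfamily, also fell in An-LBs. The probe A_46_P299330 for AT3G07940 was at 5.51, 5.89 and 5.98 in MES-treated An-LBs, against 8.36, 8.64 and 7.76 in mock-treated An-LBs, and fell by 2.46 on the log2 scale (adjusted p = 0.00111). In SBs the same probe was 1.02 higher on the log2 scale with MES (adjusted p = 0.0236), a call lost with any array left out but MES-treated SBs replicate 2. A second probe for AT3G07940 that was not a member, A_46_P216944, also fell in An-LBs, by 3.81 on the log2 scale (adjusted p = 0.000497). The probe A_46_P116235 for AT1G23030 fell by 3.12 in An-LBs (adjusted p = 0.00047). In Ls its level was 8.53, 8.78 and 7.19 with MES, against 9.93, 10.90 and 10.09 in mock-treated plants, with a log2 fold change of -2.14 that was not called (adjusted p = 0.0584).

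HFR1 (AT1G02340), a bHLH regulator of responses to light in Arabidopsis, went the other way in the reproductive tissues. Its probe A_46_P362310 was at 11.22, 10.87 and 11.03 in MES-treated An-LBs, against 9.28, 10.27 and 8.64 in mock-treated An-LBs. In An-MBs it was at 8.82, 8.13 and 8.30 with MES, against 5.46, 5.38 and 6.07 in mock-treated plants, and in SBs at 5.87, 6.49 and 5.90, against 4.51, 4.61 and 4.27. The groups did not overlap in any of these 3 tissues. HFR1 rose by 1.64 ± 0.41 in An-LBs and by 2.78 ± 0.30 in An-MBs (log2 scale, SE, limma, adjusted p = 0.0216 and 0.00553) and was at least 2.087-fold higher in SBs (adjusted p = 0.019), where no mock-treated array was well above background. In SBs the probe thus passed the filter through the MES-treated arrays alone. In Ls its level was 9.08, 9.44 and 9.40 with MES, against 8.85, 10.24 and 9.02 in mock-treated Ls (log2 fold change -0.06, adjusted p = 0.929). The call in An-LBs was lost without mock-treated An-LBs replicate 1 or any one MES-treated An-LBs array, that in An-MBs without mock-treated An-MBs replicate 1, and that in SBs without any one mock-treated SBs array.

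CYP81D1 (AT3G28740), a cytochrome P450, had its change in An-MBs. The probe A_46_P078536 was at 13.15, 13.31 and 13.26 in MES-treated An-MBs, against 10.16, 9.92 and 9.69 in mock-treated An-MBs, and rose by 3.32 ± 0.21 on the log2 scale (SE, limma, adjusted p = 0.000835), in each of the 6 fits with an array left out as well. In An-LBs it was at 15.73, 16.58 and 16.04 with MES and at 15.81, 16.02 and 15.80 in mock-treated plants, and its log2 fold changes of 0.24 there and -0.62 in Ls were not called (adjusted p = 0.474 and 0.422). Of its other probes, which were not members, A_46_P039911 rose by 3.34 in An-MBs as well (adjusted p = 0.0019), while A_46_P375530 had a log2 fold change of -1.25 there (adjusted p = 0.0984) and fell by 2.54 in An-LBs (adjusted p = 0.000716), so that probes for this gene disagreed.

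The members for proteins of unknown function fell into both kinds. AT5G22090, which carries a DUF3049 domain, had the probes A_46_P182704 and A_46_P046396. The first was at 7.40, 7.01 and 7.36 in MES-treated An-LBs, against 11.95, 11.96 and 11.99 in mock-treated An-LBs, and fell by 4.71 on the log2 scale (limma, adjusted p = 1.17e-05). The second was at 3.05, 3.61 and 3.09 in MES-treated An-LBs, none well above background, against 8.30, 8.77 and 8.11, which was at least 15.76-fold lower (adjusted p = 4.03e-05). The second probe thus passed the filter through the mock-treated arrays alone, which had also chosen it. In Ls neither probe was called, with log2 fold changes of -0.20 and 0.03 (adjusted p = 0.604 and 0.984), and A_46_P182704 was at 13.19, 12.81 and 13.58 with MES, against 13.26, 13.52 and 13.40 in mock-treated Ls.

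AT3G20300, with a DUF3537 domain, fell by 3.60 on the log2 scale in An-LBs (A_46_P283888, adjusted p = 0.000472), where it was at 9.71, 9.50 and 10.39 with MES, against 13.50, 13.87 and 13.03 in mock-treated plants. AT2G17710, whose product is not characterised, instead rose in An-MBs, by 3.35 and 2.97 on the log2 scale for its probes A_46_P289453 and A_46_P248529 (adjusted p = 0.00804 and 0.00843). The first was at 12.42, 11.50 and 11.50 in MES-treated An-MBs, against 8.51, 7.86 and 9.01 in mock-treated An-MBs. Both calls were lost without mock-treated An-MBs replicate 1, and neither probe was called in the other tissues. The same source sequence carried 3 more probes, A_46_P142629, A_46_P202549 and A_46_P253649, that were not chosen as members. They rose by 3.01, 2.74 and 2.60 in An-MBs (adjusted p = 0.00276, 0.0088 and 0.00759) and also in An-LBs, by 2.05, 1.78 and 2.20 (adjusted p = 0.00126, 0.00223 and 0.000997), where the members had log2 fold changes of 0.03 and 0.28 (adjusted p = 0.93 and 0.543).

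**Figure D5:**
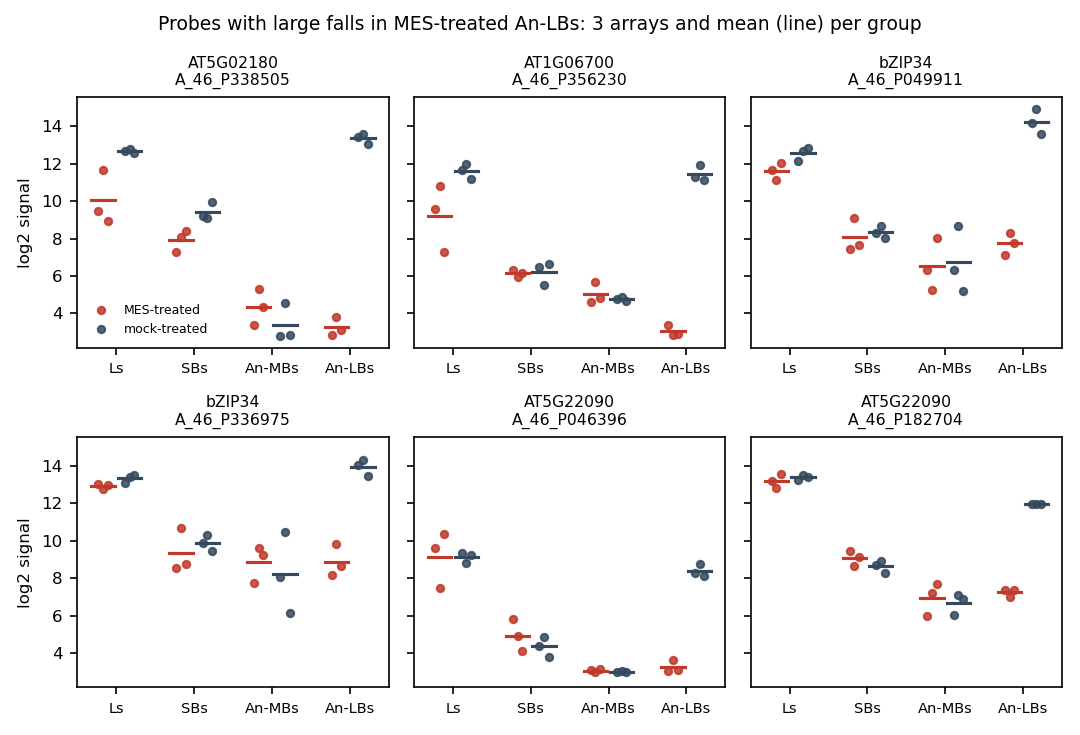
Log2 signal of 6 members with large falls in MES-treated An-LBs, for AT5G02180, AT1G06700, bZIP34 (2 probes) and AT5G22090 (2 probes), on the 3 arrays of each group (points) with the group mean (line), MES-treated in red left of mock-treated in dark blue. In An-LBs the MES-treated points lie below every mock-treated point, while in Ls the groups lie closer and overlap for AT5G22090.

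Members without a gene name held the largest rises. The probe A_46_P200824 was at 11.24, 8.61 and 10.72 in MES-treated An-MBs, against 3.27, 3.84 and 4.39 in mock-treated An-MBs, none of these well above background, and was at least 48.18-fold higher (limma, adjusted p = 0.00634). There it passed the filter through the MES-treated arrays alone. In An-LBs it was at 12.20, 11.95 and 12.79 with MES, against 10.02, 9.84 and 9.79 in mock-treated plants, a rise of 2.43 on the log2 scale (adjusted p = 0.000803). In Ls it was at 5.87, 5.87 and 6.56 with MES, against 8.22, 8.22 and 8.85, a fall by 2.33 on the log2 scale (adjusted p = 0.0255). The groups did not overlap in any of these tissues, and the leaf level was the lower one with MES while the anther levels were the higher ones. The call in Ls was lost without MES-treated Ls replicate 1 or any one mock-treated Ls array and the call in An-MBs without mock-treated An-MBs replicate 1, whereas that in An-LBs was kept with any array left out.

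A_46_P052011 had the same order of signs, with a rise of 3.41 in An-LBs and of 4.57 in An-MBs and a fall by 2.26 in Ls on the log2 scale (adjusted p = 0.000881, 0.0401 and 0.0484). It was at 11.78, 11.98 and 12.16 in MES-treated An-LBs, against 8.42, 7.96 and 9.31 in mock-treated An-LBs. Its calls in An-MBs and Ls were kept only without MES-treated replicate 2 of the tissue, and that in An-LBs with any array left out. Another probe of its source sequence, A_46_P291908, which was not a member, rose by 3.93 in An-LBs (adjusted p = 0.000291) and had a log2 fold change of -2.998 in Ls (adjusted p = 0.077). In An-MBs A_46_P264583 rose by 5.90 on the log2 scale, and its rise in An-LBs was 2.92 (adjusted p = 0.00246 and 0.00205), both kept with any array left out. It was at 11.70, 9.79 and 10.92 in MES-treated An-MBs, against 4.84, 4.61 and 5.25 in mock-treated An-MBs, and its fold change of -1.96 in Ls on the log2 scale was not called (adjusted p = 0.051). Within MES-treated plants the differences of Ls minus An-MBs were -4.09 for A_46_P200824 and -4.47 for A_46_P264583 on the log2 scale (adjusted p = 0.0086 and 0.00321), the reverse of the order by which they had been chosen.

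The member with the highest score, A_46_P082811, was at 5.95, 5.26 and 4.44 in MES-treated An-LBs, against 9.09, 9.21 and 8.81 in mock-treated An-LBs, and fell by 3.82 on the log2 scale (adjusted p = 0.000786). In Ls it was at 6.34, 7.25 and 4.32 with MES, against 9.79, 9.63 and 8.92 in mock-treated Ls, without overlap and close to the threshold (log2 fold change -3.47, adjusted p = 0.0527). A_46_P219644, of rank 9, was lower in both tissues: in Ls it was at 12.43, 13.24 and 12.81 with MES, against 14.30, 14.56 and 14.31, and in An-LBs at 13.89, 13.69 and 14.03, against 15.23, 15.66 and 15.06. It fell by 1.56 in Ls and by 1.45 in An-LBs on the log2 scale (adjusted p = 0.0339 and 0.00314). The call in An-LBs was kept with any array left out, and that in Ls was lost without MES-treated Ls replicate 1 or any one mock-treated Ls array. In Ls, A_46_P051861 fell by 2.38 and A_46_P045466 fell by 2.28 (adjusted p = 0.0249 and 0.0462), the largest called falls among members well above background on all 6 arrays, and both calls were lost without the same arrays. Neither was called in An-LBs (log2 fold changes of -0.56 and -0.83, adjusted p = 0.0551 and 0.228).

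Of the other members among the 12 with the highest score, A_46_P025306 rose by 2.49 in An-MBs (adjusted p = 0.00467), at 7.41, 6.99 and 7.71 with MES, against 4.80, 4.78 and 5.06 in mock-treated An-MBs, a call lost without mock-treated An-MBs replicate 1. A_46_P158249, of rank 2, was at 10.49, 9.07 and 9.29 in MES-treated An-MBs, against 5.58, 4.05 and 7.43 in mock-treated An-MBs, without overlap but just outside the threshold (log2 fold change 3.93, adjusted p = 0.051). A_46_P182134 fell by 1.23 in An-LBs and A_46_P341190 fell by 5.39 there (adjusted p = 0.00418 and 0.00377), the second at 4.27, 5.90 and 7.79 with MES, against 11.51, 11.20 and 11.41 in mock-treated An-LBs. A_46_P082176 and A_46_P116374, of ranks 8 and 5, were not called in any tissue. In An-LBs A_46_P082176 was at 12.47, 12.76 and 12.90 with MES, against 12.14, 12.29 and 12.09 in mock-treated An-LBs (log2 fold change 0.54, adjusted p = 0.051).

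In SBs, A_46_P378153, A_46_P230574 and A_46_P364585 had the largest called rises of members well above background on all 6 arrays, by 1.69, 1.52 and 1.08 on the log2 scale (adjusted p = 0.0419, 0.0208 and 0.0374). The call of the first was kept only without MES-treated SBs replicate 2, that of the second only without MES-treated SBs replicate 1 or 2, and that of A_46_P364585 in none of the 6 fits with an array left out. A_46_P378153 also rose by 3.09 in An-MBs (adjusted p = 0.00271), where it was at 12.11, 11.97 and 11.76 with MES, against 8.44, 9.23 and 8.92 in mock-treated plants. A_46_P230574 instead fell by 4.56 in An-LBs (adjusted p = 0.000127), at 5.57, 6.67 and 5.89 with MES, against 10.67, 10.54 and 10.58 in mock-treated plants. In An-MBs A_46_P159269 had the largest called rise of a member well above background on all 6 arrays, by 4.09 (adjusted p = 0.00493), which was lost without mock-treated An-MBs replicate 1.

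Between An-LBs and Ls, the effect of MES itself differed for 32 of the 100 members, 15 with the higher and 17 with the lower effect in An-LBs (limma's interaction contrast over all arrays, adjusted p under 0.05). Among all probes tested, 28.9% differed, 16.5% with the higher and 12.5% with the lower effect, so the share of the members was near that of all probes. The contrast draws on the mock-treated means of Ls and An-LBs, which the rule used, so it is not independent of the choice.

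Groups of probes were formed here by keywords in the descriptions given in the study's tables. They are not the functional categories that the study itself used. The tables list genes chosen on these samples, so the groups are not independent evidence of a direction. The 3 groups with named members behaved as follows. The keywords for transport found 55 probes, of which 1 was a member. They thus missed most of the member probes named above for the transporters SWEET11 and AT5G02180. Of the 55, 54 were tested in An-LBs, where 16 rose and 29 fell (median log2 fold change -1.73). In An-MBs 5 of 45 rose and 8 fell, in SBs 4 of 42 rose and 1 fell, and in Ls 3 of 41 rose and 9 fell. Of 168 probes for signalling and transcription, 4 of them members, 167 were tested in An-LBs, where 44 rose and 119 fell (median -3.37). In An-MBs 11 of 135 rose and 14 fell, in SBs 8 of 125 rose and 5 fell, and in Ls 9 of 120 rose and 1 fell. Of 26 probes for secondary metabolism, 1 a member, all were tested in An-LBs, where 11 rose and 10 fell (median 0.15). In An-MBs 9 of 22 rose and 1 fell (median 1.35), in SBs 3 of 22 rose and 1 fell, and in Ls 0 of 18 rose and 2 fell. The photosynthesis group of 18 probes held 0 members. In An-LBs 16 of its probes rose and 2 fell, in An-MBs 5 rose and 0 fell, and in Ls and SBs 0 changed. The other groups without a member had more falls than rises in An-LBs. There 59 of 73 cell wall probes tested fell and 11 rose, and 34 of 58 lipid probes fell and 20 rose. For stress 14 of 22 fell and 8 rose, for proteolysis 15 of 31 fell and 11 rose, and for defence 12 of 18 fell and 5 rose. Among all probes tested in An-LBs 17.3% were higher and 11.9% were lower.

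The members were set beside the 100 probes highest in Ls alone and the 100 highest in An-LBs alone in mock-treated plants, chosen by like rules without members. In An-LBs 96 of the late anther probes fell and 0 rose, with a median log2 fold change of -12.30 (-11.34 with 34 dark probes at their bound), against -0.84 for the members. Of the 47 leaf probes tested in An-LBs, 22 rose and 1 fell. For 57 of the 100 leaf probes no mock-treated An-LBs array was well above background. Any of these could be tested only with all 3 MES-treated arrays bright, which favours rises. In Ls, 6 of the 100 leaf probes fell and 0 rose, with a median of -1.43, against -1.39 for the members. In MES-treated plants the late anther probes had a median level of 3.84 in An-LBs, against 16.28 in mock-treated An-LBs, and for 34 of them no MES-treated An-LBs array had a signal well above background. The members had a median of 10.73 in MES-treated An-LBs, and the same held for 5 of them. These sets are given as descriptions, since each was chosen on the mock-treated arrays.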

How the data were processed

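Transcripts were measured in 24 samples, 3 in each of 8 groups, on one-colour Agilent arrays. The intensity values of each spot, with flags for outlying spots and for signals well above background, came from the authors' run of Feature Extraction (version 9.1 per the submitters' processing notes, 10.7.3.1 per the file headers), which subtracted background within each array. The authors deposited a table of log2 values, quantile normalised in GeneSpring (version 11.0). Here processed intensities were averaged over the spots of a probe, transformed to log2 and quantile normalised over 24 arrays, which differed from the deposited log2 table by a median of 6.54e-07 (largest difference 2.48). Control spots (1417 per array) were left out, and outlying spots (3 to 68 probes per array) had no weight. The number of arrays limits the precision.

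Members were chosen on the deposited log2 values, and tests were run by limma 3.58.1 under R 4.3.3 (with data.table version 1.17.8), two-sided, with Benjamini-Hochberg adjustment over all probes tested. The difference of the MES effect between An-LBs and Ls was an interaction contrast in 1 fit of all arrays. A lower bound on a fold change, written as at least, sets the brighter mean against the mean, per array of the dim group, of the higher of the probe and the dimmest signal well above background. The fits of MES against mock in each tissue and the interaction contrast were run on simulated arrays in which 200 probes had been changed. These probes were well above background on every array of the fit, and no other probe was changed. That setting is unlike An-LBs, where 29.2% of all probes were called, and unlike dim members, so the simulation is not used as support here. For the contrast, every simulated probe had the same replicate SD. The comparisons between MES-treated tissues were not simulated.

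The members and lists were chosen with earlier results of these data known. Named members were the 12 with the highest score, those with a gene, and per tissue the 3 largest called rises and falls among probes that were well above background on each of the 6 arrays and whose groups did not overlap. Genes came from the study's tables, since the RefSeq gene table held 0 of the array identifiers, and no sequences are shown.

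Per the methods, each replicate mixed plants of a separate set of field rows within a treatment. MES-treated and mock-treated arrays of a number thus came from different rows, while tissues of a treatment may share them, and they shared a slide. The main comparisons treated arrays as independent and used no block. The deviations of equally numbered MES-treated and mock-treated arrays from their group means correlated with r of 0.145, 0.252 and 0.429 in Ls, all above 0.1. In the other tissues, and in each comparison of MES-treated tissues, at least 1 of the 3 values was below 0.1. The block was therefore run as an alternative for each comparison, beside other scalings, filters, tests and each array left out.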

Additional observations from a re-analysis of the deposited data

Results flagged for a closer look

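The MES effect in An-LBs differed from that in Ls for 32 of the 100 members by the interaction contrast of limma over all 24 arrays (15 higher and 17 lower in An-LBs, adjusted p under 0.05), which was near the share among all probes tested (28.9%). The mock-treated means in this contrast had also chosen the members. All 17 lower ones were among the members that fell in An-LBs and were not called in Ls. Of the 7 members lower in both tissues, 0 were called. This breakdown follows in part from the contrast itself, which subtracts the effect in Ls from that in An-LBs. It was not set beside the same breakdown of all probes, so whether it is particular to the members was not tested. The differences of single members are given as descriptions. Of the named members, 20 were among the 32. On the log2 scale, the difference of the effects, An-LBs minus Ls, was -5.55 and -4.67 for the bZIP34 probes A_46_P049911 and A_46_P336975 and -4.51 for the AT5G22090 probe A_46_P182704. The fitted values were -7.45 for A_46_P338505 (AT5G02180), -6.01 for A_46_P356230 (AT1G06700) and -5.17 for A_46_P046396 (AT5G22090), but for these 3 no MES-treated An-LBs array had a signal well above background, so their sizes are no measured folds. With the effect in An-LBs set at its bound, the differences were -6.29, -4.65 and -4.01. It was -2.55 for A_46_P283888 (AT3G20300), and -4.02 and -4.97 for the unnamed A_46_P341190 and A_46_P230574.

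In the other direction, the difference was 1.87, 2.29, 2.36 and 2.61 for the SWEET11 probes A_46_P231464, A_46_P267703, A_46_P024356 and A_46_P371240, and 1.42 for the remaining SWEET11 probe A_46_P155559, which was not called (adjusted p = 0.14). It was 1.71 for A_46_P362310 (HFR1). For unnamed members it was 4.10 for A_46_P116374, 3.17 for A_46_P025306, 2.21 for A_46_P378153, 4.76 for A_46_P200824, 5.66 for A_46_P052011 and 4.88 for A_46_P264583.

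Replicates were wide for some of these members. A_46_P116374 was at 8.26, 9.15 and 4.47 in MES-treated Ls, against 10.72, 11.05 and 11.63 in mock-treated Ls. A_46_P341190 was at 4.27, 5.90 and 7.79 in MES-treated An-LBs, against 11.51, 11.20 and 11.41 in mock-treated An-LBs. Over the 100 members the median SD of replicates was 0.668 in MES-treated Ls and 0.320 in mock-treated Ls. With 1 array left out, 25 to 32 members were called. With the arrays of 1 scan day alone, a check added after the data had been seen, 19 were called (7 higher and 12 lower in An-LBs), and the calls of the 4 SWEET11 probes, HFR1, A_46_P116374 and A_46_P341190 were lost (adjusted p from 0.0634 to 0.19).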

How the results depend on the processing

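Of 189 calls of named members, none changed sign under any alternative: 2987 of 3472 recomputed values kept the call and 485 lost it, 237 of them with 1 array left out. With 1 array left out, members changed by MES numbered 0 to 48 in Ls, 0 to 4 in SBs, 5 to 40 in An-MBs and 30 to 49 in An-LBs. Between MES-treated tissues they numbered 43 to 74 for Ls against SBs, 28 to 55 for Ls against An-MBs, 68 to 73 for An-LBs against SBs, 10 to 55 for An-LBs against An-MBs and 33 to 56 for An-LBs against Ls, those with a differing effect in An-LBs and Ls 25 to 32, and 84 to 96 of the 100 members were chosen again.

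Counts that moved by over 1.5 times were as follows, and the cause was not tested. In SBs, 3 members were called after normexp background correction and 3 with arrays scaled at the 75th percentile. Without a filter on dim probes, which tests more probes, 13 were called in Ls, 3 in SBs and 17 in An-MBs. In a fit of all 24 arrays 42 were called in Ls and 2 in SBs, and with the slide as a random block (correlation 0.063) 41 in Ls and 2 in SBs. The methods' t-test at their threshold called 6 in Ls, 1 in SBs, 6 in An-MBs, 17 in An-LBs, 17 for Ls against SBs, 3 for Ls against An-MBs, 46 for An-LBs against SBs, 15 for An-LBs against An-MBs and 13 for An-LBs against Ls. After Benjamini-Hochberg adjustment it called 2 in Ls, 0 in SBs (24 members had an unadjusted p under 0.05 by limma), 12 in An-MBs, 45 for Ls against SBs, 29 for Ls against An-MBs and 13 for An-LBs against An-MBs. With mock-treated An-MBs replicates 1 and 2 averaged into 1 sample, 9 were called in An-MBs. With the arrays of 1 scan day alone, also added after the data had been seen, 22 were called in An-LBs and 19 had a differing effect in An-LBs and Ls. With a limit of 1 between the Ls and An-LBs means, 65 of the members were chosen again. Chosen on mock-treated replicate 1, 2 or 3 alone, a check added after the data had been seen, the lists gave 28, 32 and 46 calls in An-LBs, 4, 9 and 18 in An-MBs, 0, 2 and 3 in SBs and 0 each in Ls.

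With the replicate number as a block, the count for An-LBs against An-MBs was 22, and no other count moved by over 1.5 times: it was 29 in Ls, 6 in SBs, 21 in An-MBs, 50 in An-LBs and 31 for the differing effects. In Ls, the tissue where equally numbered arrays deviated together, 18 of the 20 calls were kept with the block.

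The median shift of all probes in An-LBs was 0.24 on the log2 scale with quantile normalisation, 0.14 with the 75th percentile and 0.20 with normexp, and the median of the members was -0.84, -0.91 and -0.75. Signal over background limits the falls of the dimmest members, for which only bounds could be given.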
